A study of Drosophila melanogaster with 2 samples.

Results

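The members are 8 genes of the Drosophila GATA network and of blood cell fate: srp, pnr, grn, GATAe and GATAd, which encode GATA factors, the GATA cofactor gene ush, the Runx factor gene lz and the fate regulator gene gcm. They are 8 of 13968 protein-coding genes on the main chromosome arms. The genes were chosen with the measured peaks of these lists in view, selected on peak position and signal, so their summits and signals are given as a description with no test. For each gene, every peak summit inside the gene or within 2 kb of either end was taken from the dm6 peak lists and placed against each annotated transcription start site (TSS).

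The peaks come from ChIP-seq, which sequences the DNA that is recovered with an antibody, in whole embryos of strain CG8359-GFP, mixed sex, collected from 0 to 14 h. The line stably carries a fusion of GFP to the C-terminus of CG8359, the gene now called hng2, and both samples carry it. The name hng2 (hinge2) belongs to a family of fly proteins with a MADF domain, which binds DNA. They are 2 biological replicates, numbered 2 and 3, of 1 transgenic line. The sample description names an anti-GFP antibody, whereas the antibody label gives CG8359. The samples hold no other genotype or stage, and control libraries were not analysed here. The lists combine all tissues of the embryo, so a weak peak in many cells and a strong peak in few cells cannot be told apart, and no summit can be assigned to blood cells.

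GATA factors are zinc finger proteins that bind the sequence GATA through conserved fingers. In the fly embryo, Serpent (srp) is required for blood cells, the fat body and the midgut, and it lies at the head of the blood cell programme. U-shaped (ush), a Friend of GATA protein, binds GATA factors and changes their output, as it does with Pannier (pnr) in the dorsal ectoderm and the heart. Lozenge (lz) then directs crystal cells and Gcm (gcm) directs plasmatocytes and glia, while GATAe acts in the midgut and Grain (grn) in the posterior spiracles and in neurons.

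Of the 20 summits described below, 5 had the short sequence AAACGCG close by: the strongest summits of srp and ush, a weak summit of srp, the pnr summit and an intronic ush summit. The stretches of 30 bases below hold these sites (Release 6 assembly, dm6, plus strand, 5′ to 3′), and the capitals mark AACGCG on either strand. They are shown as a description. Sequence was not used to choose the genes, but signal was. Among the other optimal summits this short sequence was most frequent in the quintile of highest signal, as given below. The sites lie beside some strong and some weak summits.
srp, strongest summit, chr3R:15999135-15999164: cagcgattttaAACGCGtacaaagttttcg
srp, strongest summit, chr3R:15999104-15999133: aacgccagcatAACGCGtgcaaatgtgtgc
srp, weak exonic summit, chr3R:15994638-15994667: ttaccacagcaAACGCGtcggcaacatcaa
pnr, promoter summit, chr3R:16026113-16026142: agcccaaaagaAACGCGcgtgtgtgaccgt
pnr, promoter summit, chr3R:16026174-16026203: attccaatcagAACGCGcacacacactgtt
ush, strongest summit, chr2L:491042-491071: ttcgttcataaAACGCGCGCGTTtttcgtc
ush, intronic summit, chr2L:485884-485913: gcttaagtgggCGCGTTtgtggctgtgaat
ush, summit in lncRNA:CR46258, chr2L:492401-492430: cgagtgatatcAACGCGactcatgcaagtg
The ush stretch at its strongest summit holds the core on both strands, back to back. The last stretch, the second of pnr and the second listed for srp hold the 6-base core but not the full AAACGCG.

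Of the 8 genes, 4 held at least 1 peak of the optimal list, the authors' list of peaks that passed their test of reproducibility (IDR): srp, ush, grn and pnr. Of all protein-coding genes, 21.5% did so. At promoters, within 500 bp of a TSS of the gene, the count was 3 of 8 (srp, ush and pnr), against 10.3% of all genes. GATAe, GATAd, lz and gcm had no optimal summit. The share with a summit differed with length. The share of all genes with an optimal summit was 18.4% where the gene with its flanks spanned 5 to 10 kb, 34.4% for 10 to 20 kb, 47.2% for 20 to 40 kb and 53.6% for 40 to 80 kb. The regions of the 8 genes ran from 6.25 kb (gcm) to 68.3 kb (ush).

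The replicates differed at the weaker members. Among the 3170 strongest peaks of each replicate, a number equal to the length of the optimal list, replicate 2 held a summit at 3 of the 8 genes (srp, ush and grn), against 22.2% of all genes. Replicate 3 held a summit at 5 (srp, ush, grn, pnr and GATAe), against 20.7% of all genes. This gives 4.0 ± 1.41 genes (SD, n = 2). Within 500 bp of a TSS the counts were 2 in replicate 2, against 10.6% of all genes, and 4 in replicate 3, against 10.5%. Signal is not scaled between lists, so ranks within a list are set side by side below. All 3 relaxed lists hold 30000 peaks, and read depth is unknown because no list holds read counts.

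**Figure D1:**
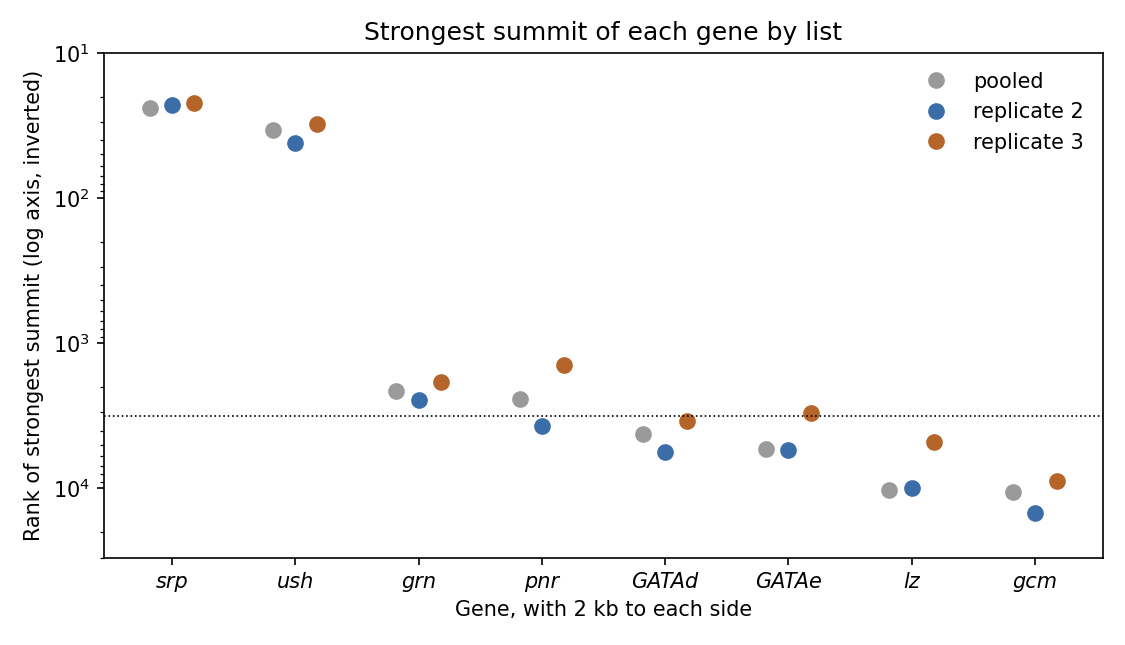
Rank of the strongest summit inside each gene and 2 kb to each side, on an inverted log axis, in the pooled list and in each replicate; the dotted line marks rank 3170. Summits of srp and ush rank between 22 and 42 in every list, and those of GATAd, lz and gcm lie below the line in every list.

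Serpent had the highest peak of the 8 genes. The gene (FBgn0003507, 3R, 15986152 to 16004085, plus strand) has 4 TSSs, and the summit lay at 15999141, 52 bp downstream of the last of them, that of transcript srp-RH. Its signal was 4650, which was rank 24 in the optimal list and 20.4% of the highest peak of that list. It was at rank 23 in replicate 2, at 15999152 with a signal of 2473, and at rank 22 in replicate 3, at 15999133 with a signal of 2205. Both replicate positions were thus within 11 bp of the pooled one, and 35 of 13968 protein-coding genes held a summit of this rank or stronger in their region. In srp-RH the summit is in the 5′ UTR of the first exon, and in all other srp transcripts it is in an intron.

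A further srp summit at 15999373, 284 bp downstream of the same TSS, shared this peak's interval of 1197 bp. Its signal was 1127, with rank 127 in the optimal list, rank 112 in replicate 2 and rank 89 in replicate 3. It lies in an exon that all annotated srp transcripts contain. Intervals of 400 bp made up 86.0% of the optimal list, so the srp interval was wide for this series.

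The remaining 3 srp summits were far weaker and stood higher in replicate 3 than in replicate 2. The summit at 16004173, 88 bp past the 3′ end of the gene, had a signal of 259 and rank 1162, with rank 2244 in replicate 2 and rank 396 in replicate 3. It was 3900 bp from the TSS of the non-coding RNA gene lncRNA:CR42839 and 5084 bp from that of srp-RH. The summit at 15993338, in a 5′ UTR exon 802 bp upstream of the TSS of srp-RA and srp-RB, had a signal of 211 and rank 1609, with rank 3115 in replicate 2 and rank 615 in replicate 3. The summit at 15994666, in the coding part of the first exon of srp-RA and srp-RB and 526 bp from their TSS, had a signal of 177 and rank 2102. It was at rank 5774 in replicate 2 and at rank 698 in replicate 3, so only replicate 3 placed it among its 3170 strongest. The 3 TSSs upstream, at 15986152, 15992434 and 15994140, had no optimal summit within 500 bp.

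GATA genes srp, GATAe and pnr stand side by side on 3R within 55.6 kb, all on the plus strand, with 5019 bp between srp and GATAe and 6945 bp between GATAe and pnr. Of the 7 optimal summits in this stretch and 2 kb to each side, 5 were those of srp, 1 was that of pnr and 1 lay between srp and GATAe, outside the limits of both. The last, at 16007058 with a signal of 152 and rank 2685, was 47 bp beyond the limit of GATAe and lay in an exon of the non-coding RNA gene lncRNA:CR42839. The nearest optimal summit beyond the upstream limit of srp was at 15983681, 471 bp outside it, with a signal of 159 and rank 2514. The srp summit at 16004173 was the only optimal summit in the flanks of the 8 genes, and the others lay inside the genes.

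**Figure D2:**
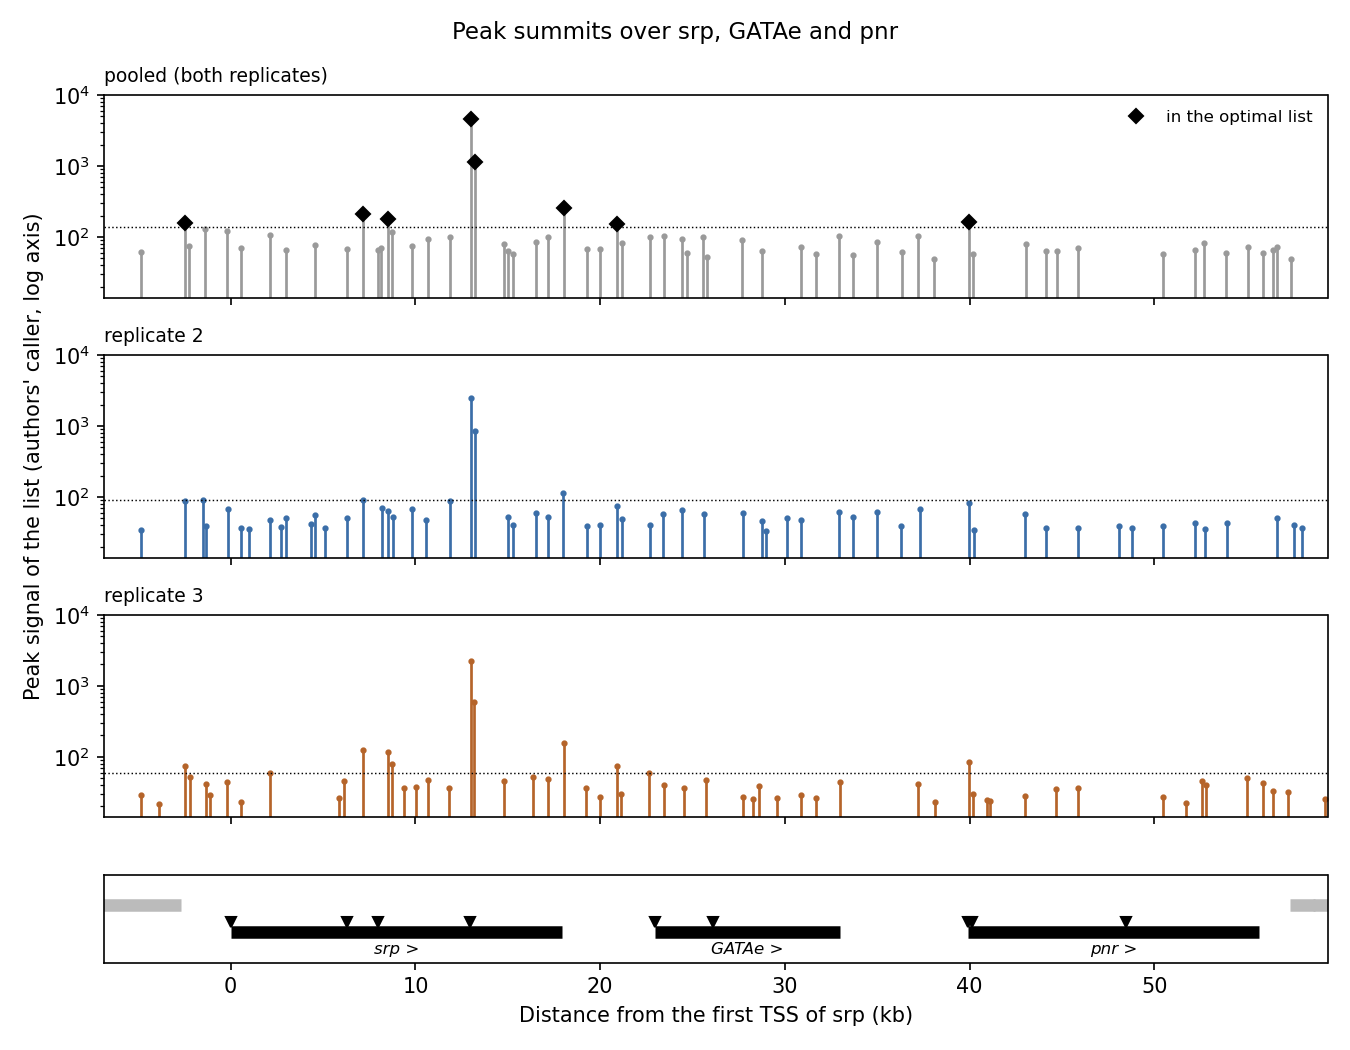
Summits along srp, GATAe and pnr as vertical lines at their distance from the first TSS of srp (kb), with the signal of each list on a log axis; diamonds are optimal summits, triangles are TSSs of the 3 genes (black bars), and dotted lines mark the signal at rank 3170. The srp summits with signals of 4650 and 1127 stand above all others, and no diamond lies over GATAe.

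Pannier (FBgn0003117, 3R, 16026079 to 16041796, plus strand) had 1 weak optimal summit, at its first TSS. It lay at 16026110, 31 bp downstream of the TSS of pnr-RD and 142 bp upstream of that of pnr-RB, with a signal of 162 and rank 2439. The summit was at rank 3699 in replicate 2, at the same base, and at rank 1420 in replicate 3, at 16026086. Replicate 2 thus had the peak at the same site but below its 3170 strongest. The signal was 0.711% of the highest in the optimal list.

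GATAe (FBgn0038391, 3R, 16009105 to 16019133) held many weak summits and no optimal one. Its strongest pooled summit, in the 3′ UTR at 16019102, had a signal of 104 and rank 5339, with ranks 6075 and 6329 in replicates 2 and 3. Replicate 3 also had a summit at 16008769, 336 bp upstream of the first TSS, with a signal of 59.6 and rank 3036, which is what placed GATAe among its called genes. In replicate 2 the summit within 100 bp of that site ranked 16264. In the pooled relaxed list GATAe had 14 summits, 0.998 per kb of its region, and srp had 24, or 1.09 per kb. The median over all protein-coding genes was 0.214 per kb, and 1.08% and 0.601% of genes had a density at least as high as GATAe and srp. Most relaxed peaks did not pass the reproducibility test, and other GATA genes were sparser, with 0.811 per kb at pnr, 0.420 at grn and 0.317 at GATAd.

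Grain (FBgn0001138, 3R, 8147368 to 8181444, minus strand) had 3 weak optimal summits, all in introns and none at its only TSS. The summit at 8180549, in the first intron and 895 bp downstream of the TSS, had a signal of 176 and rank 2141, with rank 2603 in replicate 2 and rank 1841 in replicate 3. A neighbour at 8180753, 691 bp downstream of the TSS, had a signal of 146 and rank 2869, with rank 2890 in replicate 2 and rank 4293 in replicate 3. The third, at 8171729 in the second intron and 9715 bp from the TSS, had a signal of 163 and rank 2430, with ranks 2479 and 2959 in replicates 2 and 3. Of the 678 genes with a region within 1.5-fold of that of grn in length, 107 had at least 3 optimal summits.

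The first-intron summit of grn is shown because it held more GATA sites (AGATAA or AGATAG, or either with T as its first base, both strands) than any other member summit, 3 in the window of 200 bp around it. The 120 bases around the summit, on the plus strand of dm6 and with those sites in capitals, read as follows.
grn, first intron, chr3R:8180489-8180608: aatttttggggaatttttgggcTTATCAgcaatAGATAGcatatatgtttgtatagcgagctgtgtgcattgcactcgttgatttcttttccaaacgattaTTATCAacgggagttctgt
Binding of GATA factors was not measured here.

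GATAd (FBgn0032223, 2L, 10333734 to 10339185), whose role is less studied, was weak in all lists. Its strongest pooled summit, at 10339511 with a signal of 117 and rank 4240, was 54 bp from the TSS of the neighbouring gene SamDC and 5597 bp from a TSS of GATAd. Inside GATAd the strongest was an intronic summit at 10335079 with a signal of 92.8 and rank 6758, with rank 21798 in replicate 2 and rank 3457 in replicate 3. The nearest optimal summit lay 36677 bp from the gene, at rank 2890.

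U-shaped was the member with the most optimal summits. The gene (FBgn0003963, 2L, 476220 to 540560, plus strand) is 64.3 kb long and had 11, and 8 of 13968 protein-coding genes, ush included, had at least as many. Of 349 genes with a region within 1.5-fold of its length, 4 had at least 11 and the median was 1. The strongest lay at 491045, 210 bp downstream of the TSS of ush-RB, with a signal of 3041, rank 34 and 13.3% of the highest peak. It was at rank 42 in replicate 2, at the same base with a signal of 1645, and at rank 31 in replicate 3, at 490987 with a signal of 1477. The non-coding RNA lncRNA:CR46258 starts at this same TSS on the same strand, so the peak is at a start site that both share.

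The other strong ush summits were in introns of the long transcripts ush-RD and ush-RE. The summit at 481093, 4873 bp downstream of the first TSS of ush, had a signal of 1589 and rank 87, with rank 70 in replicate 2 and rank 126 in replicate 3. A narrow peak of 136 bp had its summit at 480094, with a signal of 522 and rank 350, rank 300 in replicate 2 and rank 902 in replicate 3. Both are nearer to the TSS of cbt, a zinc finger factor gene on the minus strand inside ush, than to a TSS of ush, at 1405 and 406 bp. The summit at 485900, with a signal of 411, had ranks 848 and 282 in replicates 2 and 3, and that at 510698, with a signal of 444, had ranks 731 and 270. The summits at 510698 and 512243 are nearest to the TSS of the non-coding RNA gene lncRNA:CR46259, at 8462 and 10007 bp. Their distances to a TSS of ush are 12768 and 11223 bp. A weaker summit at 492411, in an exon of lncRNA:CR46258, had a signal of 256 and rank 1187, with ranks 1386 and 1043 in replicates 2 and 3. It was 532 bp from a TSS of lncRNA:CR46258 and 1576 bp from that of ush-RB. The first TSS of ush, at 476220, had no optimal summit within 500 bp, nor did the last pair, at 523466 and 523736.

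Along ush, the replicates differed by stretch in which optimal summits were among their 3170 strongest peaks. All 6 optimal ush summits at or before 510698 were among the 3170 strongest of both replicates. The 5 optimal summits after it, from 512243 to 522911, were among the 3170 strongest of replicate 2, and none of them was among the 3170 strongest of replicate 3 within 100 bp. The summit with the highest signal of these, at 522111 (signal 270, optimal rank 1086), was at rank 812 in replicate 2 and at rank 6202 in replicate 3. At 516259 replicate 2 had rank 918 and replicate 3 had no summit within 100 bp, although it had a summit 113 bp away, at 516372 and rank 2051. The others had ranks of 2573, 1824 and 1356 in replicate 2 and of 3281, 3626 and 11519 in replicate 3. Replicate 3 in turn had a summit at 523698, 38 bp upstream of the last ush TSS, at rank 1421, where replicate 2 had rank 7793. The part of depth in these differences was not tested.

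**Figure D3:**
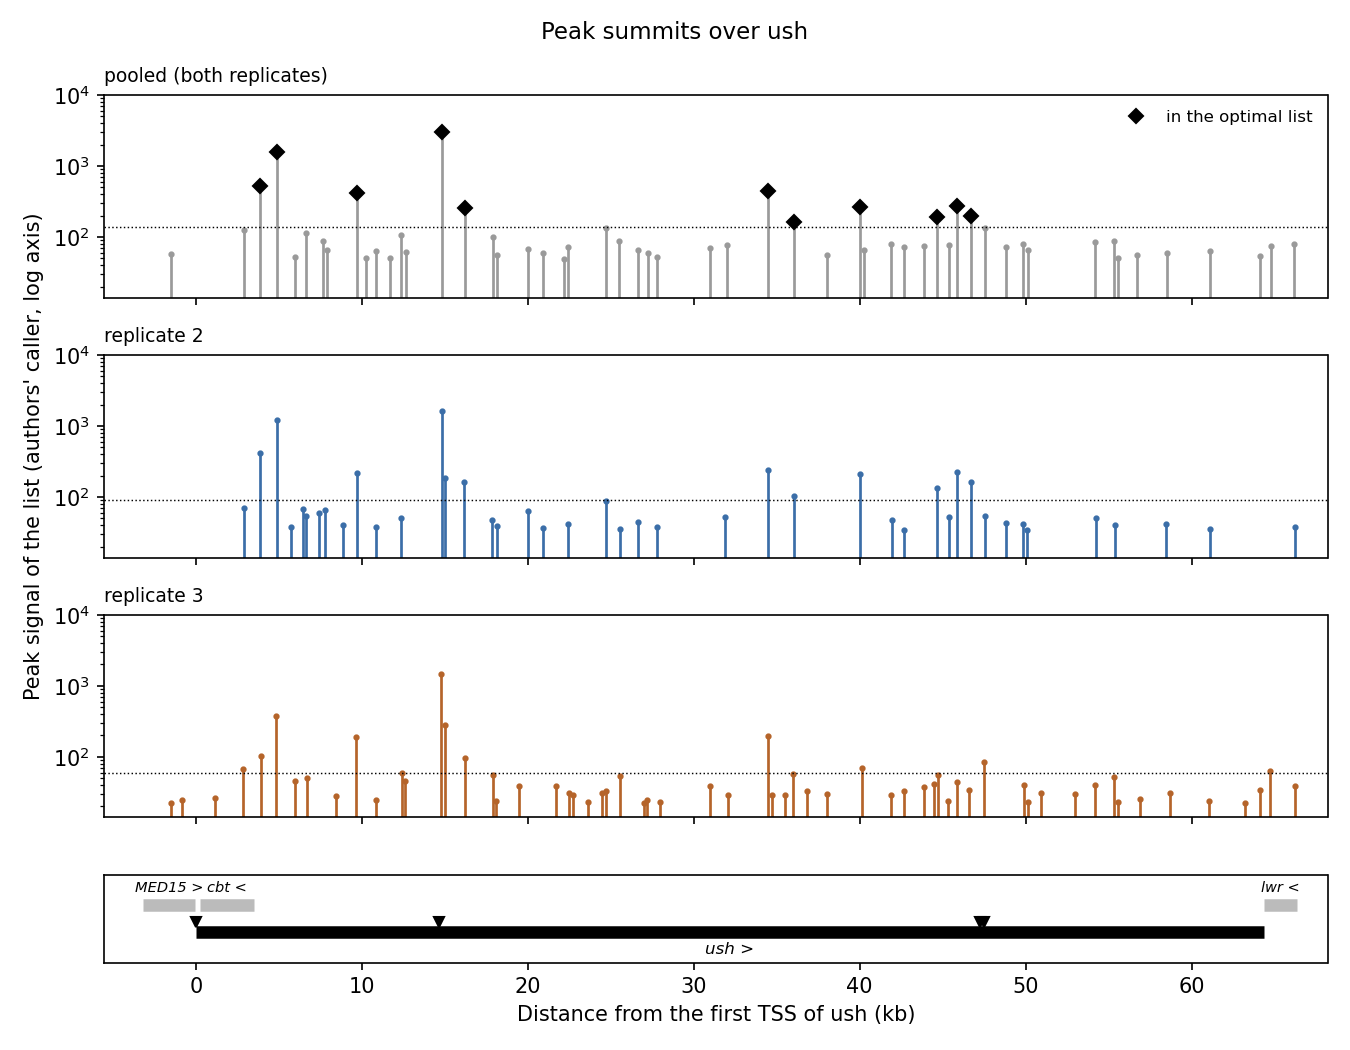
Summits along ush as vertical lines at their distance from its first TSS (kb), with the signal of each list on a log axis; diamonds are optimal summits, triangles are TSSs of ush (black bar), and dotted lines mark the signal at rank 3170. The summits with signals of 3041 and 1589 stand out in the pooled list and both replicates. Summits under the last 5 diamonds lie above the dotted line in replicate 2. In replicate 3 a summit at 516372, 113 bp from the diamond at 516259, lies above it. The replicate 3 summits within 100 bp of the other diamonds of these 5 lie below it. Its summit at 523698, also above the line, is past the last diamond.

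Lozenge and gcm had the weakest pooled summits of the 8 genes. In lz (FBgn0002576, X, 9284649 to 9303636) the strongest pooled summit was 1920 bp upstream of the TSS, at 9282729, with a signal of 77.2 and rank 10247. It was 388 bp from the TSS of the neighbouring gene c11.1. Within lz the strongest was an intronic summit at 9288124 with a signal of 73.0 and rank 11617, at rank 9974 in replicate 2 and rank 28130 in replicate 3. The nearest optimal summit lay 41002 bp from the gene.

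In glial cells missing (FBgn0014179, 2L, 9579498 to 9581745) the strongest pooled summit, at 9577515, had a signal of 75.9 and rank 10650 and was 746 bp from the TSS of Mtpalpha. Nearest to the gcm promoter, replicate 3 had a summit 30 bp downstream of the TSS at rank 8853, with none within 100 bp in replicate 2. The nearest optimal summit outside was 9415 bp beyond the gene, at 9570083 by the TSS of brwl, with a signal of 591 and rank 281. Among 10677 genes with regions about as long as that of gcm, within 1.5-fold, 15.9% held an optimal summit.

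In all, the 8 genes held 20 optimal summits, of which 4 were within 500 bp of a TSS of the gene and 12 were in introns, with no exon of any gene at the summit. Among the 3170 strongest within 100 bp, replicate 2 held 18 of the 20 and replicate 3 held 14. The share of all optimal summits held by each replicate alone was not computed. The gap between these counts therefore cannot be read as a trait of these genes. Both replicates held 12 of 20, against 50.4% of all optimal summits. The 2 that replicate 2 missed were at pnr and in the first exon of srp-RA, and the 6 that replicate 3 missed were 5 at ush and 1 at grn. These matches lay at most 39 bp from the optimal position in replicate 2 and at most 58 bp from it in replicate 3.

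**Figure D4:**
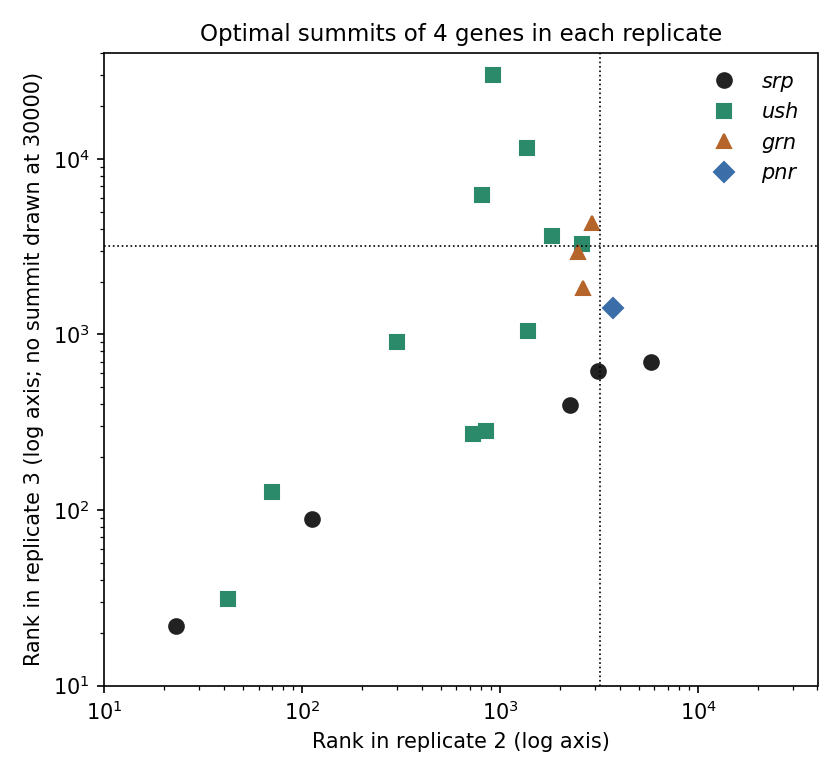
Rank of each of the 20 optimal summits in replicate 2 (x axis) and in replicate 3 (y axis), both on log axes, with dotted lines at rank 3170; a summit with none within 100 bp in replicate 3 is drawn at 30000. The 3 weaker srp summits and that of pnr rank higher in replicate 3, and 5 ush summits and a grn summit lie above the horizontal line.

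The sequence AAACGCG was found by a search that left the members out. Among the 634 strongest other optimal summits, it was the 7-base word with the highest ratio of its share in windows of 200 bp (16.9%) to its share in windows 1000 bp to either side (1.66%), a ratio of 10.2, among words in at least 10% of windows. The next word was AACGCGC, which overlaps it, with 10.1. Of the 20 member summits, 5 had AAACGCG in their window (25.0%, 95% exact interval 8.66 to 49.1), against 5.56% (4.78 to 6.41) of 3150 other optimal summits. The intervals cover counting error over windows only, and windows of the same gene share their source. The nearest match was 7 bp from the strongest summit of srp, 10 bp from that of ush, 16 bp from that of pnr, 15 bp from the weak exonic summit of srp and 2 bp from the ush summit at 485900. Among the 175 other windows with the word, 41.1% had it within 20 bp of the summit, with 54.2% in the quintile of highest signal and 20.6% in the remaining ones.

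The word was most frequent among the strongest of the other peaks, which also served to choose it. In quintiles of the optimal list from the highest signal down, 17.1%, 2.70%, 2.85%, 2.23% and 3.00% of the other windows held it. The strongest summits of srp and ush and the ush summit at 485900 belong to the strongest quintile by signal. The pnr summit and the weak exonic summit of srp do not. The srp summit at 15999373 (rank 127) and ush summits at 480094 (rank 350) and 510698 (rank 449) are also in it, without the word. The share of 5.56% is over other summits of all signals, and the members were not matched to them for signal. The ush summit at 481093, at rank 87, held neither AAACGCG nor AACGCG, and the 120 bases around it (chr2L:481033-481152, dm6, plus strand) are given to set beside the stretches above.
ush, first intron: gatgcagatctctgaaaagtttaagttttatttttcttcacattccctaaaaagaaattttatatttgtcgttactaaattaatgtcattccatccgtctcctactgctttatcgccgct
The 6-base core AACGCG was in 6 of 20 member windows, against 8.67% of the others and 19.5% of those in the strongest quintile.

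**Figure D5:**
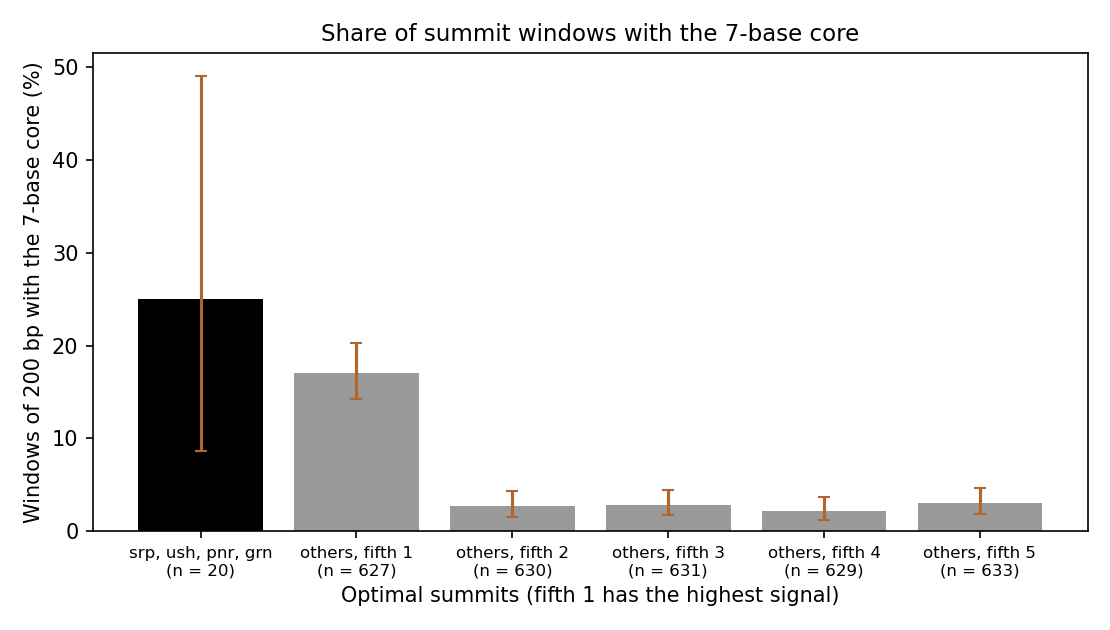
Share of windows of 200 bp with AAACGCG at the 20 summits of srp, ush, pnr and grn (black) and at the other optimal summits by quintile of signal (grey), with 95% exact binomial intervals for counting error. The members stand at 25.0% and the strongest quintile of the others, on which the word was chosen, at 17.1%, above the remaining quintiles at 2.23 to 3.00%.

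Binding motifs of the members' own protein families (GATA, Runx and Gcm) were searched in the same windows, with GAGA, CTCF and CA repeat sequences beside them. A GATA site was in 7 of 20 windows (35.0%), against 37.3% of the others, at the first intron of grn and at 6 intronic summits of ush. None of the 5 srp windows nor that of pnr held one. The Runx sequence TGTGGT or TGCGGT, of the kind that Lozenge binds, was in 6 of 20 windows, against 12.8% of the others. Its exact interval, 11.9 to 54.3%, covers that share close to its lower end. In windows of 100 and 400 bp the Runx counts were 4 and 9 of 20, against 5.78% and 27.0% of the others. The exact intervals here count windows of the same gene as separate, so they decide nothing about the members. The Gcm sequence ATGCGGG or ATACGGG was in 0 of 20, against 1.49%. That count allows a share of up to 15% by the limit of 3 counts and up to 16.8% by the exact interval. The GAGA sequence GAGAG was in 8 of 20, against 24.2%, which its exact interval of 19.1 to 63.9% covers. The CTCF sequence AGNNGGCGC was in 1 of 20, against 2.29%, and CACACACA in 2 of 20, against 4.19%. The ush summit at 510698 held 10 overlapping GAGAG matches. Both strands were searched, and a match is a description of the letters and not a site.

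Genes of the tissues in which the members act were counted in the same way. They were taken from 8 lists of 118 genes in all, and 47 (39.8%) had an optimal summit in the gene or 2 kb to each side, against 21.5% of all protein-coding genes. Their median region was 11.7 kb, against 6.16 kb for all genes. Of genes for blood cell specification and signalling, 15 of 28 (53.6%) had one, with a median region of 17.4 kb. The strongest were in introns of Pvf3 and Pvf2, ligands of the Pvr receptor on blood cells, with signals of 2934 (rank 37) and 2442 (rank 55), and in an intron of the Hox gene Antp, with 2308 (rank 58). Their ranks were 40 and 40, 45 and 63, and 72 and 45 in replicates 2 and 3.

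Of products and surface markers of hemocytes, 4 of 22 genes (18.2%) had an optimal summit, with a median region of 8.44 kb, and this share is near the 21.5% of all genes. NimC4, a receptor for the uptake of dead cells, had a signal of 285 (rank 993), the laminin gene LanA 226 and the scavenger receptor gene Sr-CI 223. Among partners of GATA and Runx proteins and corepressors, 4 of 14 (28.6%) had a summit, with a median region of 11.6 kb, the acetyltransferase gene nej at 504, the corepressor gene gro at 447 and the chromatin remodeller gene Mi-2 at 255. Of fat body genes, 3 of 12 (25.0%, also near the share of all genes) had one, with a median region of 6.63 kb, Hnf4 with 264, Lsp2 with 250 (161 bp from the TSS of DEF8) and Adh with 181.

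In dorsal mesoderm and heart, 8 of 15 genes (53.3%) had an optimal summit, with a median region of 16.3 kb, the FGF gene pyr at 1510, the muscle regulator gene Mef2 at 1041 (161 bp from the TSS of Pal1) and the heart gene tin at 347. In endoderm and gut it was 4 of 10, with a median region of 10.3 kb, fkh at 403, bin at 375 and cad at 244. Of genes of glia, whose fate gcm directs, 5 of 11 (45.5%) had one, with a median region of 11.4 kb, loco at 5208 (rank 18), pnt at 357 and moody at 310. In the posterior spiracle list it was 4 of 10, with a median region of 17.0 kb. The strongest were the RhoGAP gene cv-c at 2146 (rank 64), Abd-B at 305 and RhoGEF64C at 251. The summits counted for Pvf3, Pvf2, nej, Mi-2, Adh, cad, pnt, cv-c and RhoGEF64C are also nearest to another gene's TSS. That of pyr is intergenic, 14413 bp from its TSS.

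By signal of the strongest optimal summit, the genes nearest to srp were CG2841, with 4825 and a log2 difference of 0.05, and the myoblast fusion gene rols, with 4464 and 0.06. Those nearest to ush were Sin1, with 3093, and CG9649, with 2969, at log2 differences of 0.02 and 0.03. The likeness is over 1 list made from 2 replicates. The peak counted for CG9649 is 221 bp from a TSS of the dopamine receptor gene Dop1R1.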

How the data were processed

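Peak lists were deposited by the authors as narrowPeak files for each replicate, for both replicates pooled and as an optimal list made from these with the irreproducible discovery rate (IDR), per the deposited file lists. Each value used is the peak signal of the authors' caller against its control, as deposited, and the summit offset in bp that the authors deposited. The IDR cutoff, the peak caller and any aligner were not given in the sources used here. Lists in dm6 coordinates were joined to the Release 6 genome and to Ensembl annotation 115 of that release, and dm3 lists were not used here. Chromatin fragments were of 200 to 800 bp, per the labels.

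Summits were placed 1-based and ranked by signal within a list, with Python 3.11.15 and pandas 2.3.3. TSSs of annotated transposable elements were left out. No significance test was made, since the members and lists were chosen with earlier results of these data known. Shares over all protein-coding genes, or over the other optimal summits, are given for comparison. Replicate summits within 100 bp counted as the same. Motifs were read in windows of 200 bp, and intervals are exact (Clopper-Pearson, scipy 1.17.1). The word AAACGCG was chosen after the data were seen. The counting was tested on planted summits and motifs. Named were all 8 members, up to 3 genes per list by signal, the 2 genes nearest to srp and to ush by signal, and genes whose TSS was nearer to a member summit than the member's. Other neighbouring genes (SamDC, c11.1, Mtpalpha, brwl, Pal1, DEF8 and Dop1R1) were named after their values were seen. Nothing says that the replicates were separate collections beyond their label as biological replicates.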

Additional observations from a re-analysis of the deposited data

How the results depend on the processing

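Of 34 recomputed values, the count of members with an optimal summit fell to 2 (srp and ush) among optimal peaks above the median signal, against 13.1% of all genes. It was 3 to 5 with either replicate left out, against 22.2% and 20.7% of all genes. It was 4 with no flank (8.85% of all genes), 5 with 5 kb to each side (31.5%) and 5 with intervals in place of summits (22.3%). The promoter counts from 1 replicate were likewise those above, 2 in replicate 2 (10.6% of all genes) and 4 in replicate 3 (10.5%). The 12 summits held by both replicates became 19 of 20 when all relaxed peaks were searched, against 89.2% of all optimal summits. GATA sites were in 4 windows of 100 bp and in 11 of 400 bp, against 21.3% and 57.0% of the others. GAGAG was in 14 of 400 bp (others 47.9%) and CACACACA in 0 of 100 bp (others 1.78%). AAACGCG was in 5 at each width, against 3.97% of the others at 100 bp and 8.92% at 400 bp. The related lists gave 47 genes with either replicate left out, 34 with no flank (8.85% of all genes) and 35 among peaks above the median signal (13.1%). No paired analysis was possible because the samples form 1 group. Depth is unknown, so a gene with no optimal summit may hold weaker binding.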
